A study of Mus musculus with 14 samples.

Results

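Chromatin accessibility was examined at 42 lysosome genes and their regulators in splenic regulatory T cells (Tregs). The list, taken by gene name with no measured value in the rule, was chosen with earlier results of these libraries known. It holds the regulators Tfeb, Tfe3 and Mitf, 6 genes of the lysosomal membrane, 8 protease genes, 6 glycosidase genes, 4 genes for lipid handling, and 7 and 8 genes for the V0 and V1 sectors of the proton pump. A region belonged to a gene's promoter where its midpoint lay within 1000 bp of an annotated start of that gene, and to its other regions where that gene's start was the nearest protein-coding start. By this rule the 42 genes held 148 of the 67254 deposited regions, 52 of them at promoters among 14750 promoter regions of all genes, and each of the 42 genes had at least 1 promoter region. The filter on low counts kept 51 of the 52 promoter regions and 85 of the 96 other regions. The nearest start names a region by position only and does not show which gene it acts on, and 10 of the promoter regions were shared with a neighbouring gene.

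The 14 libraries are bulk ATAC-seq, in which a transposase cuts into open chromatin. CD45.2+ bone marrow of control Foxp3CreAtg14+/fl or of Foxp3CreAtg14fl/fl mice, mixed with equal parts of CD45.1+ WT marrow, had reconstituted sublethally irradiated Rag1–/– recipients, which make no T cells of their own. Resting central Tregs (cTregs, CD44–) and effector Tregs (eTregs, CD44+) were then sorted, by CD44 among other markers, as CD4+Foxp3-YFP+ cells, with n = 3 control and n = 4 Atg14-deficient libraries for each state. Foxp3Cre, present in all 4 groups, deletes floxed alleles in cells that express Foxp3, and the controls carried 1 floxed Atg14 allele beside an intact one. No library of cells without Cre is among the 14, and the labels give no age. All groups share the chimera design and the Cre. By the paper, both states were sorted from the spleens of n = 3 control and n = 4 Foxp3CreAtg14fl/fl chimeras. The labels number the libraries within a group and do not say which eTreg and cTreg library share a chimera. The main fit does not pair them, so the p-values measure the spread between these libraries.

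Lysosomes are the acidic compartments in which proteases, glycosidases and lipid-handling proteins break down what endocytosis and autophagy deliver. The V-ATPase, a proton pump with a membrane sector (V0) and a cytosolic sector (V1), acidifies them. TFEB, TFE3 and MITF belong to the MiT/TFE family of transcription factors, which mTORC1 holds in the cytoplasm when nutrients are plentiful and which bind E-boxes of the CLEAR type at many lysosomal genes once released. ATG14 is the subunit of the class III PI3K complex that starts autophagosome formation, and autophagosomes end in the lysosome.

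The letters TCACGTGA, the CLEAR-type E-box, were found in the central 300 bp of 6 of the 52 member promoter regions (11.5%), against 193 of the 14750 promoter regions of all genes (1.31%). The core E-box CACGTG, which every CLEAR-type match contains, was found in 12 member promoters (23.1%) and in 9.17% of all promoters, and both were searched on either strand. The 6 promoters with a CLEAR-type match were those of Mcoln1, Ctsd, Lamp1, Gla, Atp6v1a and Atp6v0d1. The examples here show the match in capitals in its surroundings for a calcium channel, a protease and a pump subunit, on the plus strand of GRCm38. Mcoln1 lies at chr8:3500437-3500517, Ctsd at chr7:142387883-142387963 and Atp6v1a at chr16:44139348-44139428.
Mcoln1 promoter: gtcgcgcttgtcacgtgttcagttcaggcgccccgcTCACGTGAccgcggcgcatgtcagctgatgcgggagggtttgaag
Ctsd promoter: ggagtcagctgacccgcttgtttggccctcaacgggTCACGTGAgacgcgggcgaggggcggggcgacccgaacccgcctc
Atp6v1a promoter: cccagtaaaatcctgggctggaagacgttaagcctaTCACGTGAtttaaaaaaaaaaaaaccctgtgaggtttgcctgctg

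The AP-1 element TGAGTCA, or TGACTCA when read on the other strand, is bound by JUN and FOS factors. It was found in 3 member promoters (5.77%) and in 4.46% of all promoters. Away from promoters it was found in 18 of the 96 member regions (18.8%) and in 13.5% of the 52457 other regions of all genes. The examples with capitals at each match are regions that were more accessible in eTregs. They are the Neu1 promoter (chr17:34931049-34931168), the region 5546 bp upstream of Ctsd (chr7:142393327-142393446), the region 3245 bp from the nearest Ctsb start (chr14:63132393-63132512), the region 18627 bp upstream of Ctsc (chr7:88259243-88259362) and the region 48446 bp from the Atp6v1c1 start (chr15:38710182-38710431).
Neu1 promoter: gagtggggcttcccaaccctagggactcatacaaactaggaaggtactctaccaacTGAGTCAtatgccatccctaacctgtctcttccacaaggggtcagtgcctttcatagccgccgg
Ctsd upstream region: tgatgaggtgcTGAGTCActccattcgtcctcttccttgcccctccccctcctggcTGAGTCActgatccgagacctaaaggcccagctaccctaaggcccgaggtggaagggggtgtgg
Ctsb region: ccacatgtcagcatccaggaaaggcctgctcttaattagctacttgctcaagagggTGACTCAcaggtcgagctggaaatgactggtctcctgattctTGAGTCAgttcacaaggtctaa
Ctsc upstream region: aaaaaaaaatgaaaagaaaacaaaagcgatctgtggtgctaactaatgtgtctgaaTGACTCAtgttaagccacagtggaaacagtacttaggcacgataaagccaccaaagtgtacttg
Atp6v1c1 region: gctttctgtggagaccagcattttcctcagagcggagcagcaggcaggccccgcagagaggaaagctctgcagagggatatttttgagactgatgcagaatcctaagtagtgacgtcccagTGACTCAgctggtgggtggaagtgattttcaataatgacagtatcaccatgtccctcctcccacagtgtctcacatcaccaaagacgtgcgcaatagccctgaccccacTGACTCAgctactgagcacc

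The Mitf promoter, which changed most clearly of all member regions between the states, had neither an E-box nor an AP-1 match in its central 300 bp. Its bases just upstream of the first exon (chr6:97806802-97807001, plus strand) are given in lower case, with no match to mark. Only some of them lie within that window, but the printed bases hold neither set of letters.
Mitf promoter: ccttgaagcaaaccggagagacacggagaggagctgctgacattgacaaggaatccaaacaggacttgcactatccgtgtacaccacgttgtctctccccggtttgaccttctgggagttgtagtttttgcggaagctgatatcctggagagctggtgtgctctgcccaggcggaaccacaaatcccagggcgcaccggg

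Library totals ran from 2242983 to 5548189 counts in regions, and promoter regions took 51.9% to 58.5% of them, with the shallowest library (control cTreg replicate 3) at the highest share. Accessibility is given as CPM, counts scaled to the library's total in regions as edgeR scales them, and differences as log2 fold changes from edgeR's quasi-likelihood test. A region was called where the Benjamini-Hochberg adjusted p over all 61366 tested regions was below 0.05 and the log2 fold change was beyond 0.5. The Atg14 promoter region had 22.5, 27.8 and 35.2 CPM in control cTregs, 24.4, 25.7, 16.8 and 20.2 in Atg14-deficient cTregs, 19.8, 21.5 and 31.2 in control eTregs, and 22.2, 20.9, 26.7 and 29.3 in Atg14-deficient eTregs. The labels do not say which part of Atg14 the floxed allele removes, so that this region does not measure the deletion. Among marker genes, no region lay within 1000 bp of a Foxp3 start, so that the table does not check the sort on Foxp3-YFP by this promoter. The promoters of Il2ra, Ikzf2 and Ctla4, the other Treg markers, had log2 fold changes of -0.05, -0.28 and -0.61 in eTregs, the last called lower. They summed to 109 to 119 CPM in control and 123 to 149 in Atg14-deficient cTregs, and to 80.0 to 87.4 and 103 to 107 in eTregs, so that the Atg14-deficient libraries were the higher in both states without overlap. The promoters of the T cell markers Cd3e, Cd3g and Lck did not overlap in cTregs, narrowly, at 46.8 to 66.06 CPM in control and 66.18 to 79.9 in Atg14-deficient libraries, and overlapped in eTregs, at 49.0 to 67.7 and 59.8 to 72.5. Of the cTreg markers Ccr7, Tcf7, Lef1 and Satb1, which are not the whole list, 8 promoter regions were tested, of which 4 were called lower in eTregs and 0 higher and 2 were above 0, at 0.25 and 0.37. The 4 called lower were those of Ccr7, a homing receptor (log2 fold change -1.20, SE 0.19, edgeR adjusted p = 4.36e-05), of the transcription factor gene Tcf7 (-1.84, SE 0.39, edgeR adjusted p = 0.00103) and both regions of Satb1, a chromatin organizer (-0.63 and -1.27). Of 7 promoter regions of the eTreg markers Cd44, Icos, Prdm1, Klrg1 and Batf, 0 were called higher in eTregs and 2 lower, both at the costimulatory receptor gene Icos (-0.72 and -0.997). The highest of the 7 was Klrg1 (1.11, SE 0.54, edgeR adjusted p = 0.138), and their sum was 135 to 176 CPM in cTregs and 124 to 153 in eTregs.

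At promoters the states differed little. Of the 51 tested member promoters, 2 were more accessible in eTregs than in cTregs when both genotypes were averaged (Mitf and Neu1) and 0 were less accessible in edgeR's test, with 4 (7.84%) and 0 at an unadjusted p below 0.05 and the same fold change, where 9.86% and 4.90% of all promoters were. The background over all 14281 tested promoters was 10.7% called, 6.99% higher and 3.68% lower. The median log2 fold change of the member promoters was 0.20, against 0.09 over all promoters and 0.01 over all tested regions, and 37 of the 51 were above 0. Summed over the member promoters, control cTregs had 2028 ± 121 CPM (mean ± SD, n = 3) and Atg14-deficient cTregs 1985 ± 58.5 (n = 4), while control eTregs had 2182 ± 112 (n = 3) and Atg14-deficient eTregs 2135 ± 72.0 (n = 4). In bulk samples, fewer cells with an open promoter and a lower signal in each cell cannot be told apart.

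**Figure D1:**
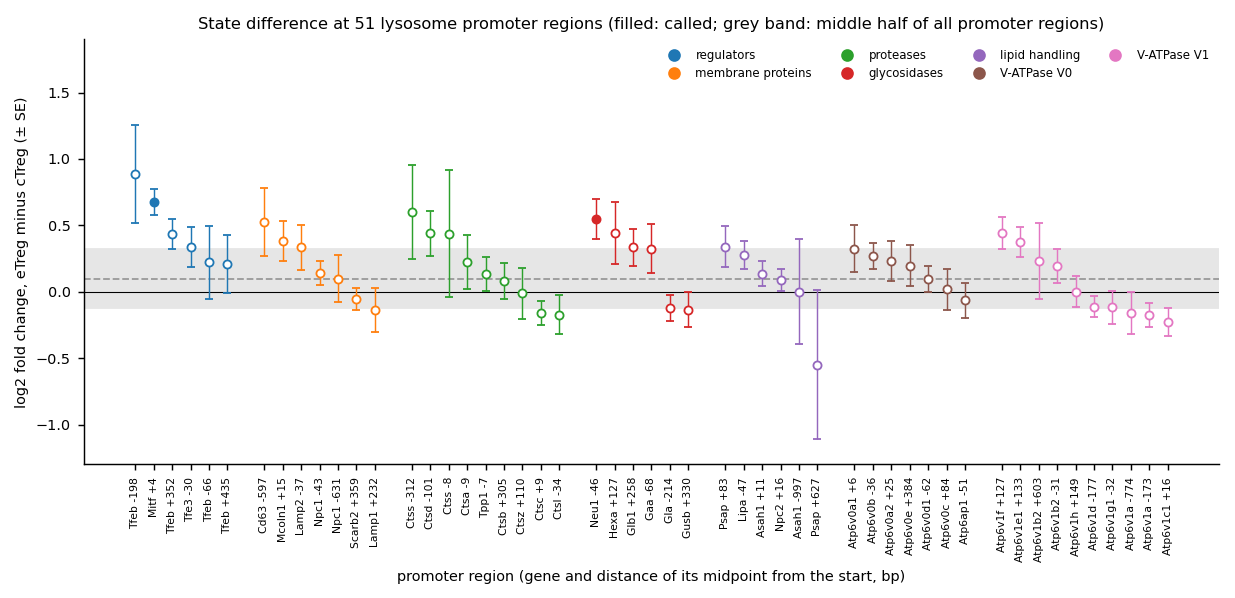
Log2 fold change between eTregs and cTregs, averaged over genotype, at the 51 tested member promoter regions, ordered within each role and labelled by gene and distance from the start in bp. Bars are standard errors from edgeR, filled points (Mitf and Neu1) passed both thresholds, the dashed line is the median of all 14281 promoter regions and the grey band their middle range from -0.12 to 0.32.

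The regulators' promoters were all above 0. Mitf, a MiT/TFE factor best known from melanocytes and osteoclasts, had its only promoter region at the first exon of one of its starts (chr6:97806738-97807387), although 4 of its 14 annotated starts lie within reach of that region. There, control cTregs had 79.7, 83.8 and 66.9 CPM and Atg14-deficient cTregs 80.6, 73.2, 72.0 and 67.5. Control eTregs had 127, 104 and 147 CPM, and Atg14-deficient eTregs 142, 119, 105 and 93.0. Every eTreg library lay above every cTreg library of either genotype. The log2 fold change was 0.68 (SE 0.10, edgeR adjusted p = 2.09e-05) over both genotypes, 0.71 (SE 0.15, adjusted p = 0.00487) in control and 0.64 (SE 0.13, adjusted p = 0.00244) in Atg14-deficient cells. It was the member region with the smallest p in each of these comparisons.

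Tfeb, the family member best known as the master regulator of lysosome biogenesis, had 4 promoter regions, at 4 of its 8 annotated starts. The most accessible (chr17:47736825-47737953, in an intron) had 34.0, 32.5 and 33.9 CPM in control cTregs and 42.8, 42.0, 30.0 and 37.3 in Atg14-deficient cTregs. It had 43.6, 47.5 and 43.3 CPM in control eTregs and 50.9, 51.9, 43.9 and 60.6 in Atg14-deficient eTregs. All eTreg libraries were again above all cTreg libraries, although only narrowly. The log2 fold change of 0.44 (SE 0.11, edgeR adjusted p = 0.00606) passed the adjusted p but not the fold threshold. The other Tfeb promoter regions had log2 fold changes of 0.21, 0.22 and 0.89, the last with an edgeR adjusted p = 0.0866.

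Tfe3, the third MiT/TFE gene of the list, had its promoter region at chrX:7762370-7762893. Control cTregs had 18.1, 23.9 and 32.1 CPM, Atg14-deficient cTregs 21.8, 18.7, 24.7 and 26.3, control eTregs 23.4, 31.0 and 29.9, and Atg14-deficient eTregs 31.2, 26.8, 29.6 and 38.0. The groups overlapped, and the log2 fold change was 0.33 (SE 0.15, edgeR adjusted p = 0.108). Summed over their 6 promoter regions, the regulators reached 153 ± 6.68 CPM (mean ± SD, n = 3) in control cTregs, 155 ± 9.24 (n = 4) in Atg14-deficient cTregs, 224 ± 16.6 (n = 3) in control eTregs and 224 ± 19.5 (n = 4) in Atg14-deficient eTregs.

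**Figure D2:**
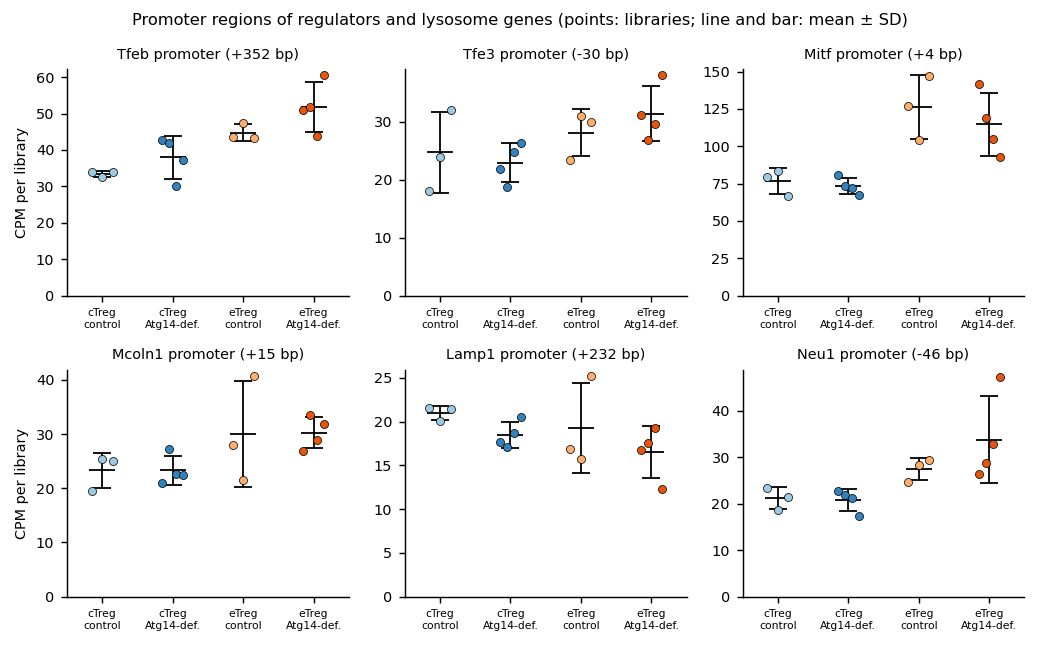
CPM per library at the most accessible promoter region of Tfeb, Tfe3, Mitf, Mcoln1 and Lamp1 and at that of Neu1, in the 4 groups; points are libraries, and line and bar are mean ± SD. At Mitf, Tfeb and Neu1 all eTreg points lie above all cTreg points, whereas at Tfe3, Mcoln1 and Lamp1 they overlap.

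Among the membrane proteins 0 of 7 tested promoter regions were called by edgeR, and their median log2 fold change was 0.14. Of the 7, 1 was higher at an unadjusted p below 0.05 together with a log2 fold change beyond the fold threshold. Mcoln1, the calcium channel TRPML1 (chr8:3500226-3500842), had 19.6, 25.4 and 25.0 CPM in control cTregs and 21.0, 27.3, 22.6 and 22.5 in Atg14-deficient cTregs, against 28.0, 21.5 and 40.7 in control eTregs and 27.0, 33.5, 28.9 and 31.8 in Atg14-deficient eTregs. The eTreg and cTreg libraries overlapped, in 1 control and 1 Atg14-deficient eTreg library, and the log2 fold change of 0.38 (SE 0.15) did not pass (edgeR adjusted p = 0.0666). Lamp1, an abundant glycoprotein of the lysosomal membrane (chr8:13158969-13159818), had 21.5, 20.1 and 21.4 CPM in control cTregs and 17.6, 17.1, 18.7 and 20.6 in Atg14-deficient cTregs. It had 16.9, 15.7 and 25.2 CPM in control eTregs and 16.8, 17.6, 19.3 and 12.3 in Atg14-deficient eTregs. The groups overlapped, with a log2 fold change of -0.14 (SE 0.16, edgeR adjusted p = 0.587). Npc1, the membrane transporter that exports cholesterol from lysosomes, was the most accessible of this class, at 88.3 to 129 CPM in cTregs (median 109) and 97.6 to 141 in eTregs (median 118). Its log2 fold change was 0.14 (SE 0.09, edgeR adjusted p = 0.292). The region 472 bp from a Lamp2 start was the only member promoter region below the filter on low counts.

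Among the hydrolases, the protease promoters had a median log2 fold change of 0.14 over 9 tested regions. Of these, edgeR called 0, and 0 had an unadjusted p below 0.05 together with a log2 fold change beyond 0.5. Ctsc, which encodes the dipeptidyl peptidase that activates granule serine proteases, was their most accessible promoter (chr7:88277755-88278312), with 118 to 169.9 CPM in cTregs (median 140.2) and 95.8 to 150.3 in eTregs (median 128). It overlapped between the states, with a log2 fold change of -0.16 (SE 0.09, edgeR adjusted p = 0.211). The 6 glycosidase promoters had a median of 0.33, the second highest of the classes after the regulators (0.39). Neu1, the lysosomal sialidase, was the only one called (chr17:34930976-34931438) and is named after its value was seen. It had 23.5, 18.7 and 21.4 CPM in control cTregs and 22.7, 21.8, 21.3 and 17.3 in Atg14-deficient cTregs, against 24.7, 28.3 and 29.4 in control eTregs and 26.4, 28.9, 32.8 and 47.3 in Atg14-deficient eTregs. All eTregs lay above all cTregs, with a log2 fold change of 0.55 (SE 0.15, edgeR adjusted p = 0.00916). Without Atg14-deficient eTreg replicate 4, its highest library, the log2 fold change was 0.44 and the fold threshold was missed (edgeR adjusted p = 0.0305). Taken by genotype it was 0.71 in Atg14-deficient cells (edgeR adjusted p = 0.0200) and 0.38 in control cells (adjusted p = 0.358), a difference of 0.33 that was not called (SE 0.30, adjusted p = 1.00). Gla, the alpha-galactosidase, shares its promoter region with Hnrnph2 (chrX:134600819-134601619) and had 92.5 to 140.1 CPM in cTregs and 84.0 to 129 in eTregs, which overlapped (log2 fold change -0.12, SE 0.10, edgeR adjusted p = 0.404).

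The lipid-handling promoters had a median log2 fold change of 0.11 over 6 regions and 0 were called. Npc2, the soluble cholesterol carrier that works with NPC1, shares its promoter (chr12:84772795-84773397) with Isca2 and had 110.3 to 159.6 CPM in cTregs and 124 to 154 in eTregs (log2 fold change 0.09, SE 0.08, edgeR adjusted p = 0.469). The proton pump promoters had a median of 0.20 over 7 V0 regions, which ran from -0.07 to 0.32, and of -0.06 over 10 V1 regions, which ran from -0.23 to 0.44. These ranges overlapped, 0 were called in either sector, and the difference between the sectors was not tested. Atp6v0d1, a V0 subunit (chr8:105565843-105566409), had 54.2 to 76.5 CPM in cTregs and 60.7 to 76.0 in eTregs (log2 fold change 0.10, SE 0.10, edgeR adjusted p = 0.517). Atp6v1a, the catalytic V1 subunit (chr16:44138890-44139974), shares its promoter with Naa50 and had 93.6 to 129 CPM in cTregs and 78.5 to 109.9 in eTregs (log2 fold change -0.17, SE 0.09, edgeR adjusted p = 0.166). Atp6v1f, another V1 subunit, had 29.2 to 57.5 CPM in cTregs and 45.6 to 58.0 in eTregs. Its log2 fold change of 0.44 (SE 0.12, edgeR adjusted p = 0.00808) fell short of the fold threshold.

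Per length, the members' promoters differed far more from each other than between the states. Taking for each gene its promoter region with the highest CPM per kb, averaged over the 14 libraries, the levels ran from 13.9 at Hexa to 241 at Ctsc, with a median of 50.8. The highest after Ctsc were Npc2 (221), Npc1 (209), Mitf (149) and Atp6v0b (146), and 10 genes were over 100 CPM per kb. The SD over libraries was 33.9 for Ctsc and 23.2 for Npc2, so these neighbours in the order did not differ beyond their spread. The lowest after Hexa were Ctss (15.8), Atp6v0e (18.4) and Lamp1 (21.9), and 8 genes were under 30. Over all 14750 promoter regions, which unlike these were not reduced to the highest of each gene, the median was 38.8 CPM per kb.

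The state difference was also read by the CLEAR-type match. The 6 member promoters that hold it had log2 fold changes between -0.17 and 0.44, a median of -0.01 and 0 calls by edgeR, against a median of 0.21 and 2 calls over the 45 without it. Over all promoters, 6.77% of the 192 tested with a match and 6.99% of those without were called higher, with medians of 0.16 and 0.09. The 6 regions had a higher median level, 47.9 CPM against 26.8. Ctsd, the aspartic protease cathepsin D, had the highest log2 fold change of the 6 (0.44, SE 0.17, edgeR adjusted p = 0.0624).

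Away from promoters calls were more frequent and went both ways, at member genes as over all genes. Of the 85 tested regions nearest to a member start, 12 were called more accessible in eTregs and 6 less, against a background of 8.83% higher and 12.6% lower among all other regions, 21.4% in both directions. Their median log2 fold change was -0.05. Over promoters and other regions together, 14 member regions of 136 were called higher and 6 lower, where 8.40% and 10.5% of all tested regions were, or 18.9% in all. With at least 10 counts required in every library, 6 were called higher and 2 lower, of 73 tested. Of all 27996 regions tested under that setting, 17.8% were called. The proteases held 6 of the 14 higher regions and 2 of the 6 lower, the V1 genes 3 and 1, the membrane proteins 1 and 2, and the regulators 2 and 0. These roles differ in size. Away from promoters and at promoters, 24 and 9 regions were tested for the proteases and 12 and 10 for V1. For the membrane proteins 19 and 7 were tested, and for the regulators 12 and 6.

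Of the 33 tested regions of protease genes 8 were called (24.2%), at Ctsb, Ctsc, Ctsd, Ctsl and Ctsz, and none at Ctsa, Ctss or Tpp1, where 18.9% of all tested regions were called. At Ctsb, a cysteine protease, an intronic region (chr14:63132091-63132718) had 4.90 to 14.1 CPM in cTregs (median 7.79) and 15.6 to 22.6 in eTregs (median 17.6). The states did not overlap there, with a log2 fold change of 1.01 (SE 0.21, edgeR adjusted p = 0.00122). Upstream of Ctsd, the region at -5546 bp (chr7:142393227-142393519) had 0.779 to 5.78 CPM in cTregs (median 3.35) and 4.18 to 10.8 in eTregs (median 7.39), a log2 fold change of 1.60 (SE 0.36, edgeR adjusted p = 0.00170). A second Ctsd region at -11661 bp (chr7:142399343-142399634) had 0 to 2.89 CPM (median 1.05) and 1.95 to 5.65 (median 4.19), a log2 fold change of 1.80 (SE 0.48, edgeR adjusted p = 0.00632). In both Ctsd regions the highest cTreg library lay above the lowest eTreg library.

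At Ctsz, the carboxypeptidase cathepsin Z, the region at -3564 bp (chr2:174442393-174442814) had 5.45 to 15.4 CPM in cTregs (median 8.94) and 13.4 to 27.0 in eTregs (median 18.0), a log2 fold change of 1.01 (SE 0.22, edgeR adjusted p = 0.00126). Ctsl, a further cysteine protease, went the other way. Its intronic region (chr13:64364268-64364605) had 13.4 to 27.6 CPM in cTregs (median 16.1) and 7.81 to 13.3 in eTregs (median 10.5), with no overlap and a log2 fold change of -0.81 (SE 0.20, edgeR adjusted p = 0.00400). Ctsc had calls in both directions. Its upstream region at -18627 bp (chr7:88259182-88259613) had 3.68 to 9.33 CPM in cTregs (median 6.24) and 6.88 to 23.1 in eTregs (median 17.3), a log2 fold change of 1.23 (SE 0.25, edgeR adjusted p = 0.000785). The region at +43057 bp (chr7:88320999-88321286) had 2.10 to 5.45 CPM in cTregs (median 3.85) and 0 to 2.12 in eTregs (median 0.976), a log2 fold change of -1.81 (SE 0.51, edgeR adjusted p = 0.00960).

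The other gene with calls in both directions was Atp6v1c1, a V1 subunit. Its region at +48446 bp (chr15:38710115-38710586, intergenic) had 2.34 to 8.14 CPM in cTregs (median 4.40) and 8.48 to 14.4 in eTregs (median 13.0), without overlap, and a log2 fold change of 1.36 (SE 0.26, edgeR adjusted p = 0.000415). Its region at -33216 bp (chr15:38628548-38628829) had 1.44 to 8.03 CPM (median 3.68) and 0 to 3.25 (median 1.08), a log2 fold change of -1.55 (SE 0.55, edgeR adjusted p = 0.0380). That call was lost when any of 9 libraries was left out, namely control cTreg replicate 1 or 3, control eTreg replicate 2 or 3, Atg14-deficient cTreg replicate 2, 3 or 4, or Atg14-deficient eTreg replicate 1 or 3 (edgeR adjusted p from 0.0532 to 0.156). The region of Atp6v1b2, also a V1 subunit, at -50209 bp lies in an exon of Slc18a1 (chr8:69038346-69038708). It had 0.779 to 3.85 CPM in cTregs (median 3.36) and 4.24 to 14.2 in eTregs (median 7.16), again without overlap, and a log2 fold change of 1.75 (SE 0.34, edgeR adjusted p = 0.000505). Atp6v0a2, a V0 subunit, had a region in its intron (chr5:124637191-124637719) with 1.58 to 7.07 CPM and 5.05 to 12.6, a log2 fold change of 1.21 (SE 0.33, edgeR adjusted p = 0.00909).

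In lipid handling, the region 40362 bp from the Asah1 start (chr8:41334093-41334578) was less accessible in eTregs. Asah1 encodes acid ceramidase. The region had 24.4 to 38.2 CPM in cTregs (median 33.2) and 6.68 to 29.7 in eTregs (median 13.2), a log2 fold change of -0.98 (SE 0.24, edgeR adjusted p = 0.00490), and control eTreg replicate 3 overlapped the cTregs. An intronic Npc1 region at +6195 bp had 2.87 to 8.03 CPM in cTregs and 1.57 to 4.11 in eTregs, a log2 fold change of -1.26 (SE 0.34, edgeR adjusted p = 0.00873). Of the remaining called regions, those of Cd63, Atp6v1b2, Mitf (+113767 bp) and Ctsb were higher, with log2 fold changes of 1.98, 1.02, 0.66 and 0.82, and a second Npc1 region was lower, at -1.03.

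**Figure D3:**
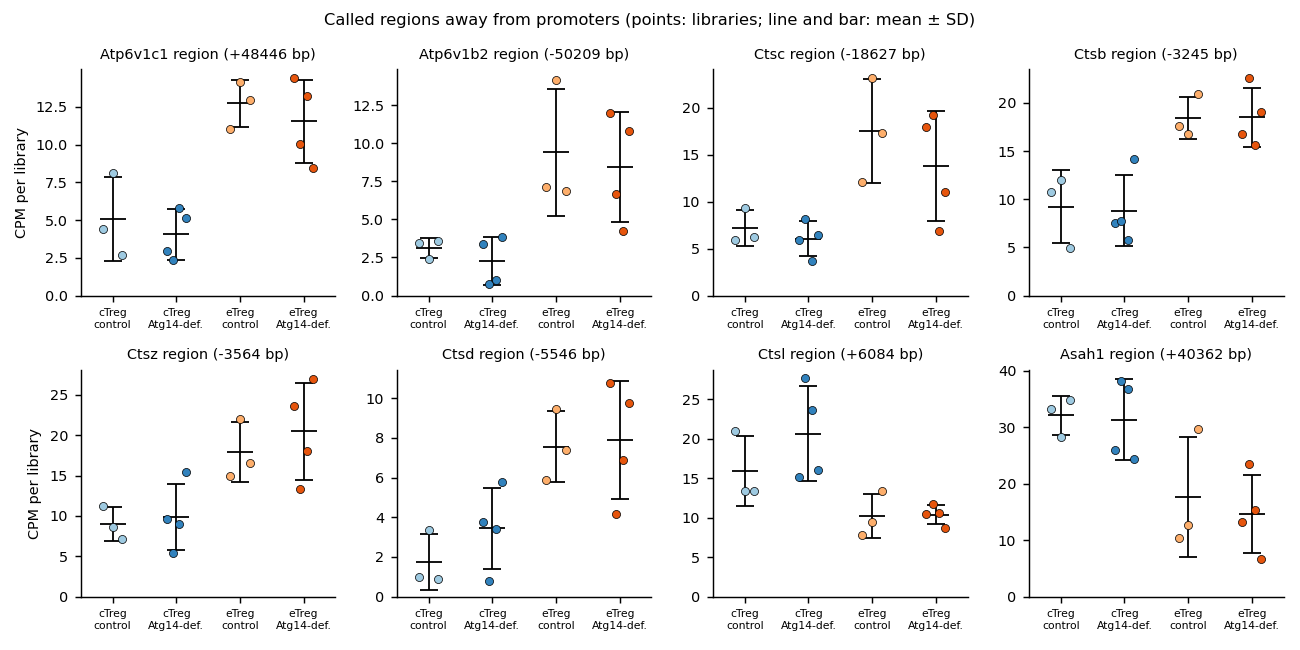
CPM per library, in the 4 groups, at the 8 regions away from promoters with the smallest p between eTregs and cTregs; points are libraries, and line and bar are mean ± SD. The regions of Atp6v1b2, Atp6v1c1, Ctsc, Ctsb, Ctsz and Ctsd are higher in eTregs, those of Ctsl and Asah1 are lower, and the genotypes overlap within a state at each of them.

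Of the 12 member regions away from promoters that were called higher in eTregs, 7 held an AP-1 match (58.3%), whereas 28.9% of the 4142 such regions of all genes did. None of the 6 called lower held one, against 8.98% of all regions called lower. Read the other way, 7 of the 16 tested member regions with a match were called higher and 0 lower, with a median log2 fold change of 0.45, and 5 of the 69 without a match were called higher and 6 lower, with a median of -0.09. Over all other regions, 18.7% of the 6404 with a match and 7.24% of those without were called higher. These are descriptions of letters in a fixed window, given without a test.

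**Figure D4:**
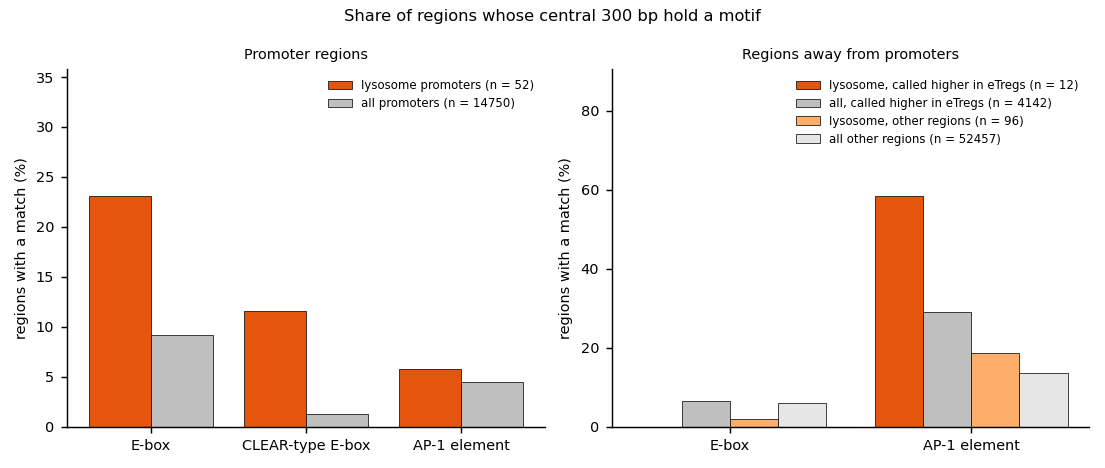
Percent of regions whose central 300 bp hold an E-box (CACGTG), a CLEAR-type E-box (TCACGTGA) or an AP-1 element (TGAGTCA) on either strand, at promoters (left) and away from promoters (right), for member regions and for the regions of all genes. The CLEAR-type share is 11.5% in member promoters and 1.31% in all, and the AP-1 share is 58.3% in member regions called higher in eTregs and 28.9% in all regions so called.

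Taken within a genotype, fewer regions passed. In control cells 5 member regions were more accessible in eTregs and 0 less, against a background of 5.30%. With the replicate number within a genotype as a block, a pairing the labels do not give, there were 14, 12 higher and 2 lower. With that block 10.4% of all regions were called. The Asah1 region at +40362 bp was then among the less accessible (-0.96, edgeR adjusted p = 0.00404). The 5 were the Mitf promoter, the Ctsd region at -5546 bp (log2 fold change 2.02), the Ctsc region at -18627 bp (1.28), the Atp6v1c1 region at +48446 bp (1.27) and the promoter of Atp6v0b, a V0 subunit (0.51, SE 0.15, edgeR adjusted p = 0.0441). The 2 promoters among them stand against a background of 2.74%. The Mitf promoter was called with every library left out in turn. The other calls were lost when control cTreg replicate 1 or 3 or control eTreg replicate 2 or 3 was left out, and the Atp6v0b and Atp6v1c1 calls also without several of the other libraries, so that the count fell to 1 without control cTreg replicate 1, control cTreg replicate 3 or control eTreg replicate 2. Without these, calls over all regions were 1.75%, 2.44% and 2.69%. In Atg14-deficient cells 12 were more accessible and 4 less, against 9.81%. The number within a genotype as a block added 4 member regions there and lost 0, and 15.5% of all regions were then called. Without the block, the 5 promoters called in Atg14-deficient cells were those of Mitf, Neu1, Cd63 (log2 fold change 1.11), Atp6v0a1 (0.75) and Atp6v1f (0.54), against 7.70% of all promoters. The Cd63 promoter call was lost when any of 7 libraries was left out (edgeR adjusted p from 0.0591 to 0.105) and the Atp6v0a1 promoter call when any of 6 was (edgeR adjusted p from 0.0533 to 0.151), all of them Atg14-deficient. Without single libraries of this genotype the count of 16 fell to 3 (cTreg replicate 3), 5 (eTreg replicate 4), 7 (cTreg replicate 2) and 8 (eTreg replicate 1). Calls over all regions fell with it, from 9.81% to 4.62%, 5.79%, 6.75% and 6.10%. The groups are of different size, n = 3 and n = 4, and a call in a single genotype does not show a difference between genotypes. The 2 comparisons share no library, and 71 of the 85 regions away from promoters and 41 of the 51 promoters had the same sign in both (83.5% and 80.4%), against 73.6% and 72.5% of the other and promoter regions of all genes. Pearson's r across the member regions was 0.75 and 0.28 and Spearman's rho 0.76 and 0.45, against r of 0.69 and 0.61 and rho of 0.66 and 0.58 over all genes, a description across regions that share libraries and depth within each state.

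The loss of Atg14 moved no member region past the adjusted threshold. In eTregs, edgeR called 0 of 136 (background 0.0228%), and 5 were higher and 1 lower at an unadjusted p below 0.05 with the same fold change, where 6.36% of all regions were. In cTregs it called 0 (background 0.0163%), and 1 was higher and 1 lower at the unadjusted threshold, where 3.34% of all regions were. DESeq2 also called 0 in both. The median log2 fold change of the member promoters was -0.02 in eTregs and -0.04 in cTregs, against 0.01 and -0.04 over all promoters. At the Mitf promoter the genotype difference was -0.14 (SE 0.14) in eTregs and -0.08 (SE 0.14) in cTregs, and at the most accessible Tfeb promoter 0.21 (SE 0.16) and 0.18 (SE 0.16).

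The 3 member regions with the smallest p in eTregs were named by that rank alone. The region 2911 bp upstream of Ctss, the cathepsin of antigen-presenting cells (chr3:95523662-95524089), had 6.51, 7.09 and 4.87 CPM in control eTregs and 11.99, 11.3, 12.7 and 18.0 in Atg14-deficient eTregs. Every Atg14-deficient eTreg library lay above every control eTreg library there, with a log2 fold change of 1.15 (SE 0.36, edgeR adjusted p = 0.386). In cTregs it had 4.89, 6.70 and 8.03 CPM in control and 7.56, 3.89, 2.63 and 7.71 in Atg14-deficient libraries, which overlapped (log2 fold change -0.26, SE 0.38). An intronic Npc1 region at +7565 bp had 2.60, 0.525 and 1.26 CPM in control and 4.79, 3.35, 2.65 and 6.16 in Atg14-deficient eTregs. It too did not overlap, narrowly, with a log2 fold change of 1.57 (SE 0.59, edgeR adjusted p = 0.491). The region 1122 bp upstream of Atp6v0a1, a V0 subunit (chr11:101008130-101008470), had 9.76, 11.0 and 7.93 CPM in control and 18.0, 10.0, 16.4 and 24.1 in Atg14-deficient eTregs, which overlapped (log2 fold change 0.86, SE 0.33, edgeR adjusted p = 0.512).

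In cTregs the same rank named a second Ctss region, in its intron (chr3:95541263-95541542), with 3.42, 2.39 and 2.68 CPM in control and 8.40, 3.11, 6.84 and 6.75 in Atg14-deficient libraries (log2 fold change 1.13, SE 0.47, edgeR adjusted p = 1.00). It also named the promoter of Cd63, a tetraspanin of late endosomes (chr10:128895495-128895773), with 11.2, 5.74 and 5.35 CPM in control and 5.88, 3.11, 3.68 and 3.85 in Atg14-deficient libraries (-0.88, SE 0.37, edgeR adjusted p = 1.00). Both overlapped between the genotypes, the Ctss region in a single library of each. The promoter of Atp6v1d, a V1 subunit, shared with Eif2s1 (chr12:78861401-78862230), had 83.1, 79.5 and 87.4 CPM in control and 99.9, 87.6, 95.2 and 108 in Atg14-deficient cTregs. These did not overlap, but the log2 fold change was small at 0.23 (SE 0.12, edgeR adjusted p = 1.00).

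**Figure D5:**
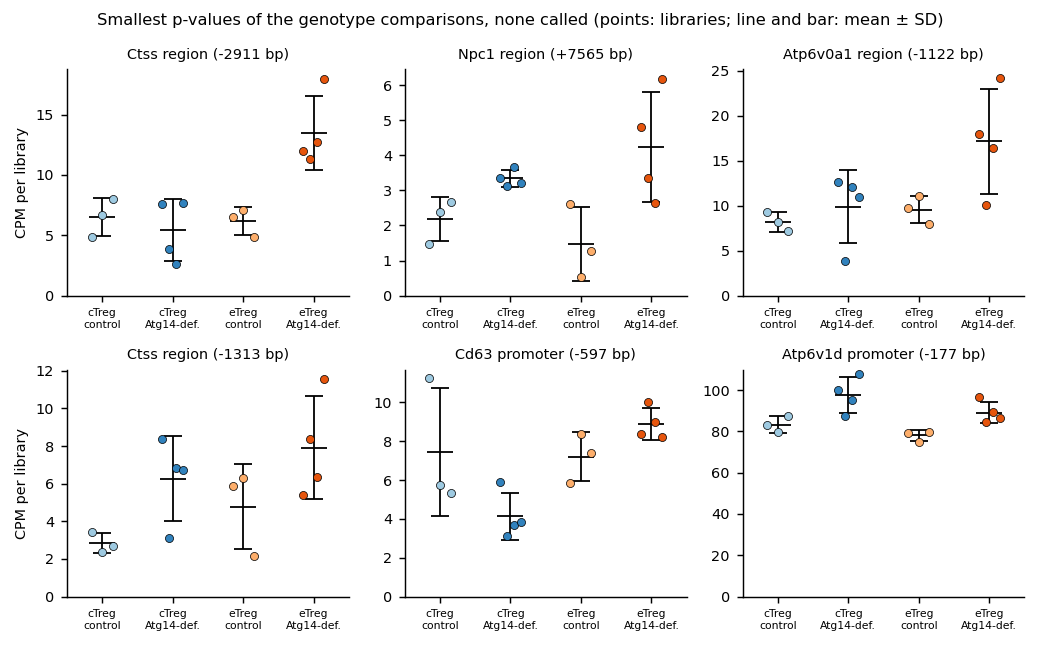
CPM per library, in the 4 groups, at the 3 member regions with the smallest genotype p in eTregs (upper row) and in cTregs (lower row); points are libraries, and line and bar are mean ± SD. At the Ctss region at -2911 bp the 4 Atg14-deficient eTreg points lie between 11.3 and 18.0 and all other libraries at or below 8.03, and none of the 6 regions was called.

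Whether the genotype difference differed between the states was tested directly, as the difference of the 2 differences. EdgeR called 0 of 136 member regions (background 0.00%), with 4 at the unadjusted threshold, all positive, where 3.05% of all regions were, and DESeq2 called 0. The named regions, those with the smallest p, were the Ctss region at -2911 bp (1.41, SE 0.52, edgeR adjusted p = 1.00), the Atp6v0a1 promoter (chr11:101009252-101009605; 0.85, SE 0.35, edgeR adjusted p = 1.00) and the Atp6v0b promoter (chr4:117887168-117887571; -0.48, SE 0.20, edgeR adjusted p = 1.00). At the Atp6v0a1 promoter, control cTregs had 19.6, 12.4 and 16.9 CPM and Atg14-deficient cTregs 14.3, 10.9, 13.1 and 12.8, whereas control eTregs had 15.6, 12.1 and 17.7 and Atg14-deficient eTregs 20.4, 20.1, 17.7 and 27.7. At the Atp6v0b promoter, control cTregs had 50.6, 47.4 and 46.4 CPM and Atg14-deficient cTregs 62.1, 69.3, 54.2 and 50.1, whereas control eTregs had 70.6, 67.7 and 67.6 and Atg14-deficient eTregs 55.7, 72.4, 60.9 and 51.9. The 2 genes of the V0 sector therefore had differences of opposite sign, and neither was called.

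Other genes of the pathway were read from 5 further lists, 94 tested promoter regions in all, in which edgeR called 6 higher (6.38%) and 0 lower in eTregs, where 6.99% of all promoters were called higher and 3.68% lower, and the median log2 fold change was 0.14. Of 29 other hydrolase genes, 23 had a promoter region, and 2 of their 28 tested regions were called, both at the heparan sulfate hydrolase Sgsh and shared with Slc26a11 (log2 fold change 1.39, SE 0.30, edgeR adjusted p = 0.00138, and 1.00, SE 0.36, adjusted p = 0.0427). Of 24 regions of other membrane proteins 2 were called, at Cln3, which shares its region with Apobr (1.08, SE 0.36, edgeR adjusted p = 0.0312), and at Cd68, a lysosomal glycoprotein of macrophages (1.00, SE 0.36, edgeR adjusted p = 0.0460). Of 17 regions of genes that dock mTORC1 or control TFEB, 1 was called, at Lamtor2, a subunit of the Ragulator complex, shared with Ubqln4 (0.98, SE 0.23, edgeR adjusted p = 0.00293). Of 12 regions of genes for sorting to the lysosome 1 was called, at the adaptor Gga1 (0.54, SE 0.15, edgeR adjusted p = 0.0108). Of 13 regions of tethering and fusion genes edgeR called 0, with 3 higher at the unadjusted threshold.

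Markers of other cells were read in the same way. Of 7 myeloid markers only Spi1 and Cebpa had a promoter region, and Csf1r, Lyz2, Itgam, Adgre1 and Fcgr1 had none. The summed CPM of the 2 was 15.1 to 21.8 in cTregs and 27.3 to 49.2 in eTregs, and Cebpa, a myeloid transcription factor, was called higher in eTregs (log2 fold change 1.34, edgeR adjusted p = 2.1e-05). The dendritic cell markers had 7.40 to 23.8 CPM in cTregs and 17.1 to 34.3 in eTregs, with 1 of 3 regions called higher. The B cell markers had 1.56 to 13.4 CPM in cTregs and 4.69 to 17.2 in eTregs and the NK cell markers 0 to 3.21 and 1.06 to 5.99, which overlapped, and edgeR called none of them, with 0 at an unadjusted p below 0.05 and the same fold change. The CD8 T cell marker Cd8b1 had 10.3 to 21.4 CPM in cTregs and 1.54 to 6.83 in eTregs and was called lower (log2 fold change -1.82, SE 0.27, edgeR adjusted p = 1.96e-05), and neither erythroid marker had a promoter region. Their part in the differences at Ctsb, Ctsd, Ctsz, Mitf and the other member genes was not tested.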

How the data were processed

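ATAC-seq counts of 14 libraries in 4 groups were analysed from raw counts that the authors deposited for 67254 merged regions, from nucleosome-free reads only. Per the study's methods, reads were trimmed, aligned, freed of duplicates, shifted for the transposase and counted with bedtools over peaks found by MACS2 in each library and in at least a set share of a genotype's replicates. The submitters' processing notes name cutadapt 1.9, Picard 1.65 and MACS2 2.1.0.20150603, and mm10/GRCm38, whereas the methods name mm9. The coordinates fit GRCm38, which was used. Of the counts, 82.0% were even, as when both mates are counted, so counting errors are larger than whole counts would give. Peaks were called before the test, so a region open in few libraries may be missing.

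RefSeq GRCm38 starts assigned the regions. Counts were scaled to CPM by library totals (2242983 to 5548189) and fitted with edgeR 4.0.16 in R 4.3.3 (robust quasi-likelihood, 1 coefficient per group, 14 libraries, 61366 regions after filterByExpr, Benjamini-Hochberg adjustment over all of them). The biological coefficient of variation was 25.6% and the median tested region had a mean count of 23. The fit was tested on simulated data. Python 3.11.15 made the tables. All 6 comparisons come from this fit, and no set test was run. One marker gene of cTregs is not reported here. Named regions follow a rule: the most accessible promoter of Tfeb, Tfe3, Mitf, Lamp1, Mcoln1 and of each role, the 12 called member regions with the smallest p between the states, the 3 with the smallest p in each genotype comparison, and genes called in both directions. The members, lists and rules were chosen with earlier results of these data known.

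Alternatives were TMM and DESeq2 1.42.0 normalization, the DESeq2 Wald test, scaling by promoter counts, at least 10 counts in every library, no filter, the replicate number as a block, the number within a genotype as a block (which assumes that same-numbered eTreg and cTreg libraries are paired, as the labels do not say), and each library left out in turn. Within a genotype, the deviations of an eTreg library and the cTreg library of its number correlated at 0.12 to 0.24 in the 4 Atg14-deficient pairs and at 0.05 to 0.21 in the 3 control pairs.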

Additional observations from a re-analysis of the deposited data

Results flagged for a closer look

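Among 64 groups of 4 libraries at the named regions, 2 held a library far from the other 3, and chance alone flags about 1 group in 20. At the Gla promoter, Atg14-deficient cTreg replicate 3 had 140.1 CPM while the next library had 99.9. At the Atp6v1c1 region -33216 bp from its start, Atg14-deficient cTreg replicate 1 had 1.68 CPM while the next had 3.68.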

How the results depend on the processing

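With both genotypes averaged, the state comparison called 20 member regions, and 18 to 25 with single libraries left out. It called 8 (6 higher, 2 lower, of 73 tested) when at least 10 counts were required in every library. That setting called 17.8% of its 27996 tested regions, against 18.9% in the main fit. Other settings gave 19 to 25. In control cells the 5 calls became 10 by the DESeq2 Wald test, 14 with the number within a genotype as a replicate block, 2 with libraries scaled by promoter counts, 3 with at least 10 counts in every library, and 1 to 8 with single libraries left out. Of all regions 5.30% were called there, 6.82% by the DESeq2 Wald test and 10.4% with that block. Scaling by promoter counts called 4.88% of all regions, at least 10 counts 6.22%, and the fits with single libraries left out 1.75% to 5.92%. In Atg14-deficient cells the 16 calls became 10 with at least 10 counts in every library and 3 to 16 with single libraries left out. The shares of all regions called there were 9.81% in the main fit, 12.4% with at least 10 counts and 4.62% to 12.1% with single libraries left out. The cause of these changes was not tested. The genotype comparisons and the genotype by state difference called 0 under every setting run, and no named region with a call changed direction.

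In both genotypes, the deviations of each eTreg library correlated most with those of the cTreg library of its own number. The weakest of these pairs was that of control replicate 1, at 0.05. With the replicate number as a block the counts were 19, 7 and 14 for the mean, control and Atg14-deficient state comparisons. Of all regions 19.5%, 6.14% and 10.6% were then called. With the number within a genotype as a block, a pairing that is assumed, the counts were 25, 14 and 20, and 22.9%, 10.4% and 15.5% of all regions were called. This second block added 5, 9 and 4 member regions. Among the named regions, it added in the mean comparison calls at the Ctss region at -2911 bp (log2 fold change 0.65) and the Atp6v0a1 region at -1122 bp (0.52), while the replicate number block lost that of the Atp6v1c1 region at -33216 bp (edgeR adjusted p = 0.0529). In Atg14-deficient cells the number within a genotype as a block added the Ctsd region at -5546 bp (1.23) and the Atp6v0a1 region at -1122 bp (0.81). In control cells it added 6 and the replicate number block added 3 and lost the Atp6v1c1 region at +48446 bp (edgeR adjusted p = 0.0549). Scaling by promoter counts moved the median of the member promoters from 0.20 to 0.15 and that of all promoters from 0.09 to 0.05, and the share of higher calls among all called regions from 45.0% to 35.6% in Atg14-deficient cells.

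Depth limits regions away from promoters, since several named ones held under 10 CPM. The median tested region, promoters included, had a mean count of 23.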
